A study of Mus musculus with 11 samples.

Results

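Penk, Pdyn, Tac1, Cck and Sst encode the precursors of enkephalin, dynorphin, substance P, cholecystokinin and somatostatin, and they were followed here through every brain of an array study of 11 mice. They were chosen by name, as genes for peptides of striatal projection neurons and of cortical and hippocampal neurons, and make 5 of the 8252 genes named on the array. They are read by 8 of its 12488 probe sets, 3 for Penk, 2 for Pdyn and 1 each for Tac1, Cck and Sst. The mice were untreated C57BL/6J animals of 6 to 9 weeks, and RNA came from the whole brain. Of these, 5 lacked both copies of Chrnb4, the gene of the β4 nicotinic receptor subunit, and 6 were wild-type littermates. The null mice were 2 males and 3 females and the wild-type mice 4 males and 2 females, with 1 array per mouse. The labels name a null allele of the whole animal and no cell type or age at which the subunit was removed.

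A neuropeptide is made as a long precursor, cut by prohormone convertases in secretory granules, trimmed and often amidated, and released beside a fast transmitter to act on G protein-coupled receptors. In the striatum, projection neurons of the direct pathway make dynorphin and substance P, and those of the indirect pathway make enkephalin. Cholecystokinin is among the most abundant peptides of cortical and hippocampal neurons, and somatostatin marks a large class of inhibitory interneurons. In RNA of a whole brain, fewer cells of a type and less RNA per cell cannot be told apart.

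The transcription of several of these precursors is known to answer to cyclic AMP through the factor CREB, whose site is TGACGTCA or its core CGTCA. The sequences before the transcription start are shown because they carry the letters of that site, which members of the group share although they were chosen for their peptides. RefSeq sequences on GRCm38.p6 were matched for 4 of the 5 genes, and the last 120 bases before the start are printed 5′ to 3′ in the gene's direction, with a match to either motif in capitals. They lie at chr6:7554941-7555060 (Tac1, plus strand), chr9:121495695-121495814 (Cck, minus strand), chr16:23890845-23890964 (Sst, minus strand) and chr2:129699939-129700058 (Pdyn, minus strand).
Sst: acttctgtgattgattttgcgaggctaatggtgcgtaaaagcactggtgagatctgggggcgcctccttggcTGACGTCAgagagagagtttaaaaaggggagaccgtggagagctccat
Cck: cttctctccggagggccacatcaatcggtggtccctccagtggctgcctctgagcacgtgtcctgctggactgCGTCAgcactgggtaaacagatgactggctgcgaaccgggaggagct
Tac1: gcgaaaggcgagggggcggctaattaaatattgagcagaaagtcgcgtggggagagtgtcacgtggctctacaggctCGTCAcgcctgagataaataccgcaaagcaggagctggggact
Pdyn: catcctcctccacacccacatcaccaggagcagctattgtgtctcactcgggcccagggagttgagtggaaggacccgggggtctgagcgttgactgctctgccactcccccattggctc

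The 3 windows with capitals hold them at nearly the same distance from the start. CGTCA begins 45 bases before the start in Sst, 47 in Cck and 43 in Tac1, and TGACGTCA begins 48 bases before it in Sst. Searched on both strands, TGACGTCA is found in 1.24% and CGTCA in 11.7% of the 32851 windows of this length, the first always containing the second. These shares count a motif anywhere in the window, and the share with one at this distance was not counted. Neither is found in the Pdyn window shown or in that of a second Pdyn start, which says only that these letters are not there.

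Signals are MAS5 intensities on a linear scale, and levels of different probe sets are not set against each other. Differences are log2 values with their standard error (SE), and a call is an adjusted p under 0.05 in limma with Benjamini-Hochberg adjustment over all 7453 probe sets that passed a filter on low signal. Of the 8 probe sets, 7 passed, and the third Penk set did not. All arrays were scaled to a trimmed mean of 150.1, and their median signals were 43.6 to 58.3. The arrays of the 2 male null brains were known from earlier results of these data to stand apart. Their ratio of 3′ to 5′ Gapdh signal, a measure of how complete the labelled transcripts were, was 0.859 and 0.798, against 2.19 to 3.58 in the female null and 3.57 to 5.92 in the wild-type brains. Genotype values are therefore given with and without these arrays. The array carries no probe set named for Chrnb4, so the genotype labels could not be checked on the disrupted gene. The animal numbers carry the letters LT in 3 wild-type mice, the same 3 that were 6 weeks old, and B4 in all other mice. The labels do not say what the letters stand for. Their part in a difference cannot be told apart from that of the youngest age. Of the 16 pan-neuronal genes listed as a check of the tissue, 14 were on the array, and all 14 passed the filter.

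Genotype was the comparison the study was built on. None of the 7 tested probe sets was called between null and wild-type brains in limma, where 0.0268% of all tested probe sets were. At an unadjusted p under 0.05 only Cck was lower in null brains, and 9.69% of all probe sets were lower at that level. Without the 2 male null arrays none of the 7 was called, nor was any probe set of the array (0%), and Cck alone had an unadjusted p under 0.05, as had 3.54% of all. The median difference over all tested probe sets was 0.03 with 11 and 0.02 with 9 arrays.

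**Figure D1:**
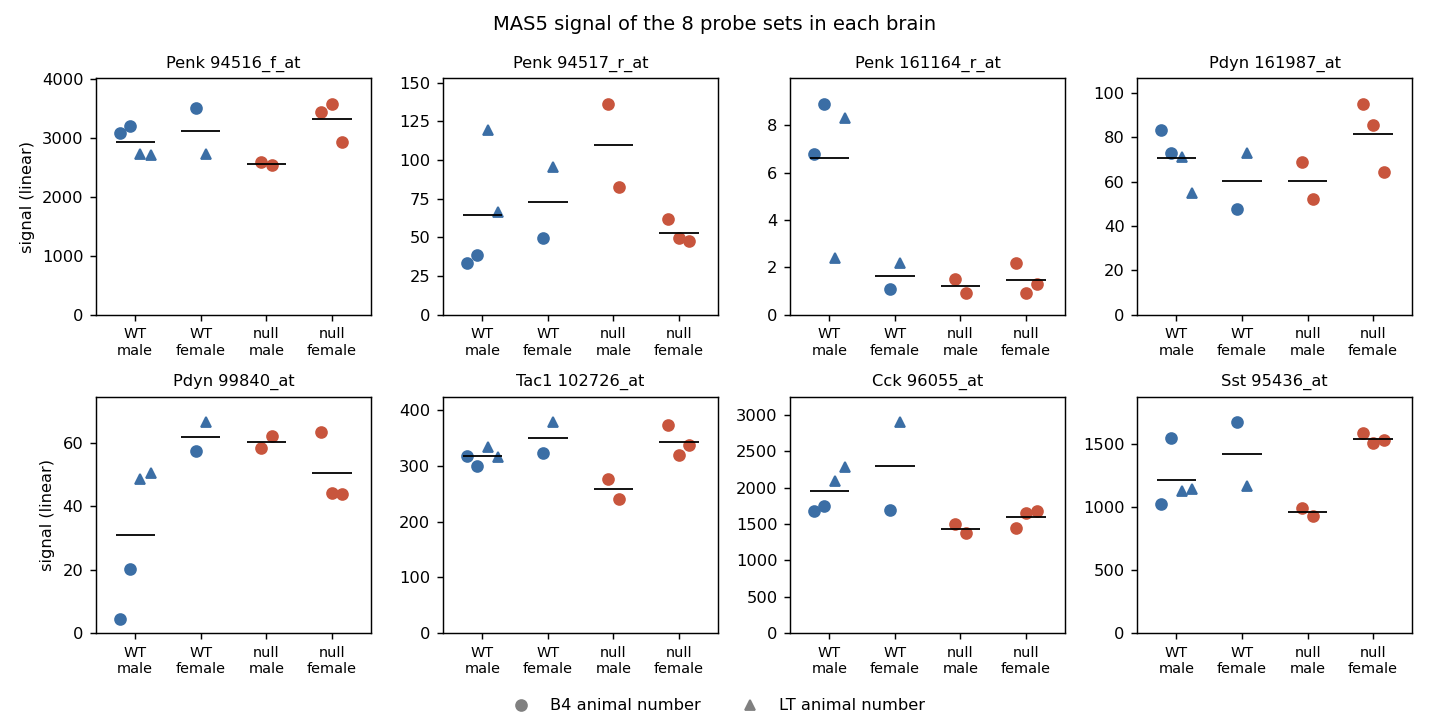
MAS5 signal (linear axis from 0) of the 8 probe sets in each of the 11 brains, by genotype and sex; blue points are wild-type and red points null, triangles are LT and circles B4 animal numbers, and bars are group means. The 3 LT brains are the highest for Cck, at 2087 to 2898, and the 2 male null brains are the lowest for Tac1 and Sst.

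Penk encodes proenkephalin, the source of the enkephalins that act on delta and mu opioid receptors. Its brightest probe set, 94516_f_at, read 3083, 3197, 3510, 2729, 2729 and 2715 in wild-type brains 1 to 6, and 2593, 2534, 3439, 3576 and 2925 in null brains 1 to 5. The lowest signals came from the 2 male null brains and the highest from a female null brain, so the null values spanned those of the wild-type. The wild-type mean was 2994 ± 327 (SD, n = 6) and the null mean 3013 ± 478 (SD, n = 5). The log2 difference was -0.06 (SE 0.12, 95% interval -0.31 to 0.20, limma adjusted p = 0.799), and 0.09 (SE 0.15) without the male null arrays, so its direction turned; it turned with quantile normalization too, to 0.10.

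The other Penk probe sets did not follow the first. 94517_r_at read 33.3, 38.4, 49.8, 119.7, 95.8 and 66.4 in wild-type and 136.4, 82.9, 62.0, 49.8 and 47.8 in null brains. Where 94516_f_at was lowest, in the male null and the LT brains, 94517_r_at was highest, and the Pearson correlation of their log2 signals was -0.67 over 11 and -0.56 over 9 arrays (Spearman -0.64 and -0.47). The genotype difference of 94517_r_at was 0.30 (SE 0.37, limma adjusted p = 0.641) and -0.39 without the male null arrays. It was 0.94 among the 8 B4 brains, 0.89 with the letters as a block and 0.95 with age as a covariate, none of them called. The third set, 161164_r_at, read 0.9 to 8.9 and lay at or below the floor of 3.1 on 8 of 11 arrays, so it gave no usable level. In this array's naming, _f marks probes that fit a group of similar sequences and _r a set made under relaxed design rules. Which of these sets tracks the full Penk transcript was not tested.

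Pdyn encodes prodynorphin, whose products act on the kappa opioid receptor. Probe set 161987_at read 83.1, 73.1, 47.7, 70.9, 72.9 and 55.0 in wild-type and 68.7, 52.1, 95.1, 85.4 and 64.4 in null brains. The groups overlapped throughout, and the log2 difference was 0.10 (SE 0.21, 95% interval -0.36 to 0.56, limma adjusted p = 0.81). Without the male null arrays it was 0.45 (SE 0.28, limma adjusted p = 0.999). Its direction turned, to -0.07 and -0.08, when arrays were quantile normalized or centred on their medians. Probe set 99840_at read 4.4, 20.2, 57.4, 48.6, 66.4 and 50.5 in wild-type and 58.4, 62.2, 63.4, 44.1 and 43.9 in null brains. Wild-type brains 1 and 2 were the only ones under 43.9. The difference of 99840_at was 0.63 (SE 0.58, 95% interval -0.62 to 1.88, limma adjusted p = 0.522) and -0.31 (SE 0.82) without the male null arrays. It was 0.20 without wild-type brain 1, 1.44 among the 8 B4 brains, 1.46 with the letters as a block and 1.88 with age as a covariate, with no call in any of these. The 2 sets correlated at -0.33 over 11 and -0.28 over 9 arrays (Spearman -0.17 and -0.15), so they gave no common order of the brains for Pdyn.

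Tac1 encodes the precursor of substance P and neurokinin A. Its signals were 317.6, 299.3, 322.8, 333.1, 377.5 and 315.4 in wild-type and 276.2, 240.9, 372.9, 318.8 and 336.9 in null brains. The 2 male null brains were the lowest of all 11, and the 3 female null brains lay within the wild-type range. The means were 327.6 ± 26.8 (SD, n = 6) and 309.1 ± 51.7 (SD, n = 5), with a log2 difference of -0.17 (SE 0.12, 95% interval -0.42 to 0.08, limma adjusted p = 0.389). Without the male null arrays it was -0.03 (SE 0.15, 95% interval -0.36 to 0.30). Tac1 was the steadiest of these genes. Its coefficient of variation was 12.2% over 11 brains and 7.93% over 9, at the 8.12th and the 3.27th percentile of all tested probe sets, whose median was 22.5% and 18.6%.

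Cck encodes the precursor of cholecystokinin, whose main brain form is a sulfated, amidated octapeptide. Its signals were 1683, 1750, 1694, 2087, 2898 and 2279 in wild-type and 1502, 1372, 1442, 1654 and 1681 in null brains. Every null brain was below every wild-type brain, though the closest of each, at 1681 and 1683, all but touched; 0.496% of tested probe sets had all null below all wild-type signals. The means were 2065 ± 474 (SD, n = 6) and 1530 ± 134 (SD, n = 5). The log2 difference was -0.45 (SE 0.15, 95% interval -0.77 to -0.14), with a limma adjusted p of 0.113. Without the male null arrays it was -0.48 (SE 0.21, limma adjusted p = 0.999). Within males it was -0.43 and within females -0.48, and the interaction of genotype and sex was -0.05 (SE 0.28, limma adjusted p = 0.928).

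The wild-type Cck signals themselves separated by the letters of the animal numbers. The 3 B4 wild-type brains read 1709 ± 35.9 and the 3 LT wild-type brains 2421 ± 424 (SD, n = 3 each). All null mice carry B4 numbers, and none of the 7 probe sets was called among the 8 B4 brains, where 0.349% of all were. There the genotype difference of Cck was -0.19 (SE 0.12, 95% interval -0.45 to 0.08, limma adjusted p = 0.36). With age as a covariate it was -0.25 (SE 0.17, limma adjusted p = 0.554), and with the letters as a block -0.21 (SE 0.13, limma adjusted p = 0.364). Because every null signal was below every wild-type signal, the null brains were necessarily the lower at each age where both genotypes were present. At 7 weeks 1 null brain read 1442 against 1694 in 1 wild-type brain, both female. At 8 weeks 2 null brains, both female, read 1654 and 1681 against 1750 in a male wild-type brain, so genotype and sex cannot be told apart there. At 9 weeks the 2 male null brains, whose arrays stand apart, read 1502 and 1372 against 1683 in a male wild-type brain. Leaving out wild-type brain 3 gave -0.59 (adjusted p = 0.0502) and leaving out wild-type brain 5 gave -0.31 (adjusted p = 0.132), and over all alternatives run the limma adjusted p of Cck lay between 0.0502 and 0.999. Cck lies on chromosome 9, as does Chrnb4, with 612 protein-coding genes between them.

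Cortical and hippocampal excitatory neurons make much of the brain's cholecystokinin. The summed signal of 12 of their marker genes, none of them at 0 on any array, was 4037 to 4539 in the B4 wild-type, 4650 to 6300 in the LT wild-type, 4172 to 4439 in the female null and 3192 to 3643 in the male null brains. The brightest genes weigh most in this sum. Wild-type means were 1344.5 for Lmo4, 1183 for Tbr1 and 1123 for Nrgn, against 54.6 for Neurod6. The female null sums lay inside the B4 wild-type range. All female null Cck signals, 1442 to 1681, were below those of the B4 wild-type, as all null signals were below all wild-type signals. The single markers differed in sign. Of the 9 tested, 6 had a genotype difference below 0, as Nrgn (-0.77) and Tbr1 (-0.70), and 3 above 0, as Nptx1 (0.82), and none was called. Without the male null arrays Nrgn had -0.17, Tbr1 -0.22 and Nptx1 0.11. The median of the 9 was -0.32 over 11 and -0.13 over 9 arrays. Their part in the Cck difference was not tested.

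Sst encodes the precursor of somatostatin. Its signals were 1024, 1549, 1670, 1130, 1167 and 1140 in wild-type and 991.8, 931, 1588, 1503 and 1529 in null brains. The 2 male null brains were the lowest of all, and the 3 female null brains lay among the highest. The genotypes had means of 1280 ± 263 (SD, n = 6) and 1309 ± 319 (SD, n = 5). The log2 difference was -0.10 (SE 0.15, 95% interval -0.42 to 0.22, limma adjusted p = 0.709), and it turned to 0.14 (SE 0.19, 95% interval -0.27 to 0.56) without the male null arrays.

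**Figure D2:**
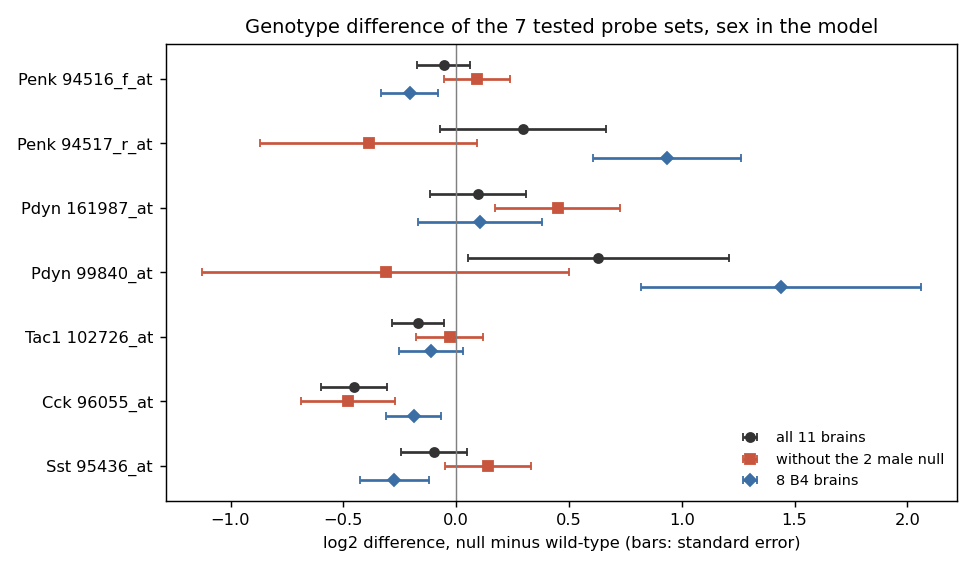
Log2 difference, null minus wild-type, with its standard error, of the 7 tested probe sets in all 11 brains (black circles), without the 2 male null brains (red squares) and in the 8 B4 brains alone (blue diamonds), from limma with sex in the model. Cck is below 0 in all 3, at -0.45, -0.48 and -0.19, while Penk 94516_f_at and Sst lie on both sides of 0.

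The Sst signals lay in 2 separate ranges, 931 to 1167 in 6 brains and 1503 to 1670 in 5 brains, with none between, and each labelled age fell within a single range. They were 1130, 1167 and 1140 at 6 weeks, 1670 and 1588 at 7 weeks, 1549, 1503 and 1529 at 8 weeks, and 1024, 991.8 and 931 at 9 weeks. The values at 7, 8 and 9 weeks come from brains of both genotypes. The ages are confounded with other properties of the mice. Every 6-week mouse was wild-type with an LT number, both 7-week mice were female, and all 9-week mice were male.

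With age as 4 classes beside genotype and sex, a test added after these values were seen, Sst had an F of 7.29 (limma adjusted p = 0.256). No probe set of the array was called for age (0%), and 10.8% had an unadjusted p under 0.05. Without the male null arrays, where a single brain stands for 9 weeks, the adjusted p of Sst was 0.133. The same test called Pdyn 99840_at on those 9 arrays (F of 23.0, limma adjusted p = 0.0489), where 0.456% of all probe sets were called; on 11 arrays its adjusted p was 0.445. Its wild-type signals of 4.4 at 9 weeks and 20.2 at 8 weeks were the lowest of the set. The 9-week value lies near the floor, and the null brains of these ages read 43.9 to 62.2.

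**Figure D3:**
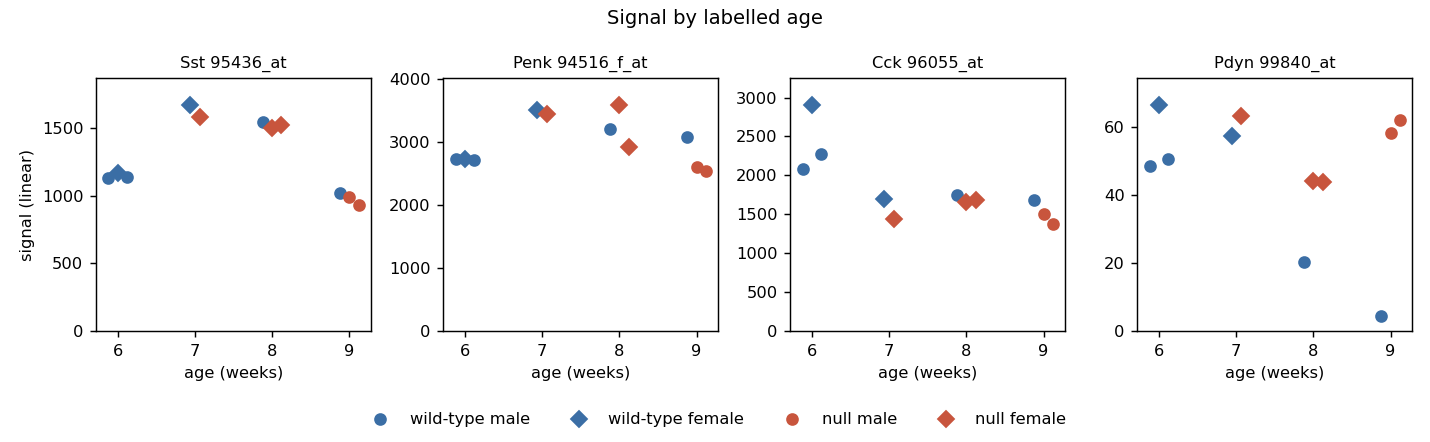
Signal (linear axis from 0) against labelled age in weeks for Sst, Penk 94516_f_at, Cck and Pdyn 99840_at, each point 1 brain; circles are males, diamonds females, blue wild-type and red null. Sst reads 1130 to 1167 at 6 weeks, 1503 to 1670 at 7 and 8 weeks and 931 to 1024 at 9 weeks, and Cck is highest in the 6-week brains.

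The letters of the animal numbers were compared as LT minus B4, with genotype and sex in the model, also after the values were seen. All LT mice were wild-type, so this difference is that of the LT from the B4 wild-type brains. On 11 arrays none of the 7 probe sets was called, against 0.47% of all. On the 9 arrays without the male null brains 2 of the 7 were, against 2.42% of all tested probe sets. These were Penk 94517_r_at, higher in LT by 1.19 (SE 0.26, limma adjusted p = 0.0412), and Cck, higher in LT by 0.49 (SE 0.12, limma adjusted p = 0.0498). Penk 94516_f_at had -0.26 (SE 0.10, limma adjusted p = 0.202) in the same fit, the opposite sign to 94517_r_at. All 3 LT signals of Cck exceeded all 8 B4 signals, as they did for 3.05% of tested probe sets. The other values were -0.27 for Sst, 0.12 for Tac1, -0.01 for Pdyn 161987_at and 1.67 for Pdyn 99840_at, none of them called. For Penk 94517_r_at and Cck the differences over 11 arrays were the same as over 9. Only their SE were larger over 11, at 0.36 and 0.14.

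Sex gave no call among the 7 probe sets or in the whole table (0% in limma, 12.4% at an unadjusted p under 0.05). Sst was 1491 ± 192 (SD, n = 5) in females and 1128 ± 222 (SD, n = 6) in males. Its female minus male difference was 0.44 (SE 0.15, limma adjusted p = 0.316), and 0.22 (SE 0.18) without the male null arrays. Tac1 was 345.8 ± 27.7 (SD, n = 5) in females and 297.1 ± 33.6 (SD, n = 6) in males, a difference of 0.27 (SE 0.12, limma adjusted p = 0.37) that was 0.14 without those arrays. The other 5 sets lay between -0.32 and 0.67 with adjusted p of 0.471 or more.

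The genotype difference was also set between the sexes. This interaction called 15.9% of all probe sets and none of the 7 members. At 5 of them the differences within males and within females had opposite signs. Sst had -0.32 in males and 0.14 in females, Penk 94516_f_at -0.19 and 0.09, and Pdyn 161987_at -0.22 and 0.45. The order was the reverse for Penk 94517_r_at, at 0.91 and -0.39, and for Pdyn 99840_at, at 1.48 and -0.31. The interactions were 0.46 (SE 0.25, limma adjusted p = 0.239) for Sst and -1.30 (SE 0.66, limma adjusted p = 0.198) for Penk 94517_r_at. In the males alone 32.6% of all probe sets were called for genotype and none of the members, and in the females 0%. For Penk 94516_f_at, Tac1, Cck and Sst both male null brains were below all 4 wild-type male brains, which held for 22.9% of tested probe sets.

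Across the brains, Sst went with Npy, at a Pearson correlation of log2 signal of 0.93 over 11 and 0.88 over 9 arrays. Npy encodes neuropeptide Y, is made by many of the same cortical interneurons, and was picked after its values were seen. Npy (103235_at) read 633.3, 823, 799.4, 568.1, 730.9 and 586.4 in wild-type and 526.2, 530.4, 853.9, 812.1 and 818.8 in null brains. The 5 brains with the highest Sst had the 5 highest Npy signals, 799.4 or more, and 4 of them had Penk 94516_f_at signals above those of all other brains. The summed signal of 21 inhibitory interneuron genes, which include Npy but not Sst, was 10118 to 10626 at 6 weeks, 10122 to 11198 at 7 weeks, 10243 to 11496 at 8 weeks and 8507 to 10842 at 9 weeks, with no gene at 0. These ranges overlapped between ages where those of Sst did not, and the brightest genes weigh most in such a sum. Gad1, which encodes an enzyme that makes GABA, read 1622 to 2158 on the 11 arrays. The correlation of Gad1 with Sst was 0.19 over 11 and 0.66 over 9 arrays. That of Cort, another gene of the list, was 0.65 and 0.24. A part of shared cells in these values was not tested.

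**Figure D4:**
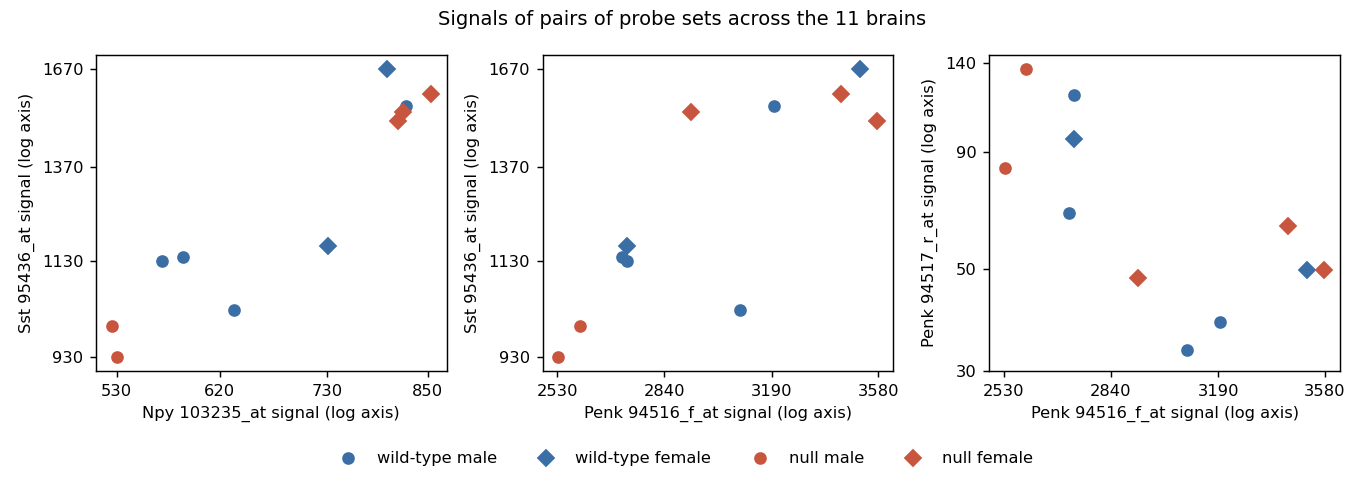
Signals of pairs of probe sets on log axes, each point 1 brain (circles male, diamonds female, blue wild-type, red null). The brains with high Sst are also those with the highest Npy. Penk 94516_f_at does not separate them from the brains with low Sst. It read 2925 in null brain 5, where Sst was high, and 3083 in wild-type brain 1, where Sst was low. Penk 94517_r_at is high where Penk 94516_f_at is low (Pearson -0.67, n = 11).

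By Pearson correlation of log2 signal, the 3 genes most like Sst over 11 arrays were Suclg1 (0.96), Ssu72 (0.95) and Ttc3 (0.94), and Ssu72 and Ttc3 were also among the 3 over the 9 arrays (both 0.96), with Tef (0.96). Because Sst lies in 2 ranges, these values describe the gap between them as much as the order within. For Penk 94516_f_at they were Flii (0.94), Tmem11 (0.92) and Fah (0.91) over 11, and Ncaph2 (0.94), Ints5 (0.93) and Adcy6 (0.93) over 9 arrays. For Cck they were Cyth2 (0.92), Satb1 (0.91) and Hs3st1 (0.91) over 11, and F8a (0.98), Marcksl1 (0.93) and Cyth2 (0.92) over 9. Satb1, in the list of inhibitory interneuron genes, encodes a chromatin organizer. Its signal was 211.2 to 268.7 in the male null and 287.1 to 544.5 in the other brains. For Tac1 they were Slc6a8 (0.95), the creatine transporter, Ssbp4 (0.90) and Cuedc2 (0.89) over 11, and Plcb1 (0.95), Dbndd2 (0.93) and Faah (0.90) over 9. For Pdyn 161987_at they were Kcnn1 (0.87), Lrpap1 (0.87) and Zic2 (0.85) over 11, and Kmt5c (0.90), Ocel1 (0.90) and Anp32e (0.89) over 9. Some of these rest on which arrays are used: Plcb1 had -0.65 with Tac1 over 11 arrays, and Ncaph2 -0.23 with Penk. With many genes and few brains, each value is a description of these arrays.

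Receptors of the opioid, tachykinin, cholecystokinin and somatostatin families were mostly dim. Of 14 receptor genes listed, 13 had a probe set and 4 passed the filter; the opioid receptor genes Oprm1, Oprd1 and Oprk1 did not. None of the 4 was called for genotype, and their median difference was 0.30 over 11 and 0.16 over 9 arrays. Sstr4, a somatostatin receptor, read 196.6 and 203.6 in the male null and 96.0 to 152.9 in the other brains. Its genotype difference was 0.43 (SE 0.13, limma adjusted p = 0.109) over 11 and 0.26 over 9 arrays. Sstr2, another, had -0.14 (SE 0.20) over 11 arrays and turned to 0.32 over 9. Cckbr, the cholecystokinin receptor of the brain, had 0.17 (SE 0.15) over 11 and 0.065 over 9. Oprl1, the receptor of nociceptin, a peptide of none of the 5 members, was the only 1 of the 4 called for the interaction. It had -1.87 (limma adjusted p = 0.0305), and 15.9% of all probe sets were called. Its genotype difference was 1.81 in males and -0.06 in females.

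Among 22 genes of precursor processing and dense-core granules, 19 were on the array and 17 passed. None was called for genotype. At an unadjusted p under 0.05, 3 of the 17 were higher and 5 lower in null brains, where 13.4% of all tested probe sets were higher and 9.69% lower; without the male null arrays none of the 17 had such a p. The median difference was 0.11 over 11 and -0.0004 over 9 arrays. Cpe, the carboxypeptidase that trims cut precursors, had -0.25 (SE 0.11, limma adjusted p = 0.202) over 11 and -0.17 over 9 arrays. Pcsk1, a prohormone convertase, had 0.31 (SE 0.27, limma adjusted p = 0.503) and 0.23. For the interaction 2 of the 17 were called, the granule proteins Chga and Chgb in opposite directions, against 15.9% of all probe sets. The 2 male null brains read 296.4 and 310.5 for Chga and the other 9 brains 130.3 to 197.2 (interaction -0.92, limma adjusted p = 0.0292). For Chgb they read 2097 and 2500, below the 3558 to 4921 of the rest (interaction 1.02, limma adjusted p = 0.00563).

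The peptidases that break down released peptides gave 13 of 15 genes on the array and 10 tested. None was called for genotype, with a median of 0.16 over 11 and 0.03 over 9 arrays. The interaction called 2 of the 10, against 15.9% of all probe sets. Thop1, thimet oligopeptidase, had -2.48 (adjusted p = 0.017) and Dpp3, which cleaves enkephalins, -1.61 (adjusted p = 0.0215) in limma. Thop1 had a genotype difference of 1.49 in males and -0.99 in females, and Dpp3 of 1.66 and 0.05.

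Genes of the neurons that host the peptides were counted in the same way. Of 31 genes of striatal projection neurons, 16 were on the array and 10 passed; Drd2, the dopamine receptor of enkephalin neurons, read 59.5 to 117.5 with a genotype difference of -0.19 (SE 0.19, limma adjusted p = 0.559) over 11 and -0.14 over 9 arrays. None of the 10 was called for genotype, and their median was -0.07 over 11 and 0.10 over 9 arrays. For the interaction 4 of the 10 were called, against 15.9% of all probe sets. These were Pde1b, a calmodulin-dependent phosphodiesterase, at -1.11 (adjusted p = 0.00512), Meis2, a transcription factor, at 1.11 (adjusted p = 0.0208), Strn, striatin, at 0.88 (adjusted p = 0.032) and Rgs4, a regulator of G protein signalling, at -3.52 (adjusted p = 0.0277), all in limma. Pde1b read 843.4 and 921.6 in the male null and 409.8 to 555.7 in all other brains. Rgs4 read 170.1 and 184.0 against 3.1 to 35.0.

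Of 24 inhibitory interneuron genes, 21 were on the array and 17 passed, none called for genotype, with a median of -0.10 over 11 and 0.09 over 9 arrays. Slc32a1, the vesicular GABA transporter, had -0.72 (SE 0.18, limma adjusted p = 0.0852) over 11 and -0.31 over 9 arrays. Calb2, calretinin, and Cort, the precursor of cortistatin, a peptide close to somatostatin, were the 2 of 17 called for the interaction, at -1.09 (adjusted p = 0.0262) and 1.10 (adjusted p = 0.0149) in limma. Over all probe sets 15.9% were called. For Cort the 2 male null signals were 59.2 and 67.2, below the 110.2 to 155.6 of the rest. With the log ratio of Gapdh 5′ to 3′ signal in the model, all 11 of these interaction calls were lost, as were all in the table. The male null arrays are those with the lowest 3′ to 5′ ratio, so the ratio stands largely for that group. The interaction rests on the same group, so the loss of calls was close to built into this model. It cannot tell transcript completeness apart from the other properties of these brains. Only Pde1b and Chgb kept the call whichever single brain was left out. All of the other 9 lost it without wild-type brain 5, and most also without null brain 1 or null brain 2, with adjusted p of up to 0.149 in limma (Chga without wild-type brain 5).

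**Figure D5:**
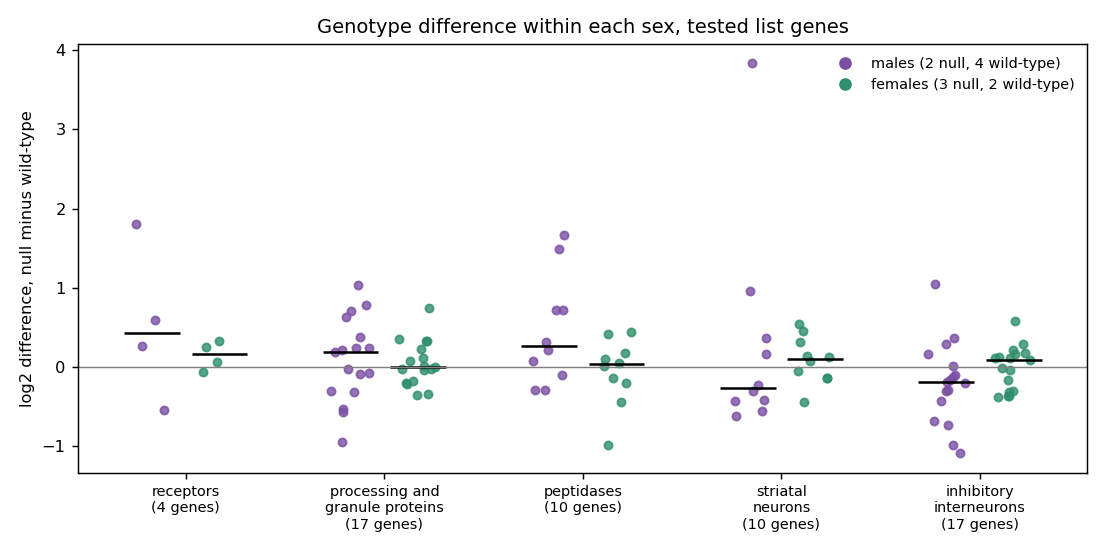
Log2 genotype difference, null minus wild-type, of each tested gene in 5 lists, within males (purple, 2 null and 4 wild-type) and within females (green, 3 null and 2 wild-type); bars are list medians. The medians in females lie between -0.0004 and 0.16, and those in males between -0.27 and 0.43.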

How the data were processed

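The deposited intensity table holds 1 linear signal per probe set and array, and the submitters' processing notes name MAS5; its version and settings are not given in the sources used here. Members and lists were chosen with earlier results of these data known. Signals under the 10th percentile (3.1) were raised to it and logged to base 2, and probe sets with a mean log2 signal under the 40th percentile (4.69) were not tested, which left 7453. The number of arrays limits the precision. limma 3.58.1 in R 4.3.3 (lmFit, eBayes with trend, Benjamini-Hochberg) gave genotype with sex as covariate, sex with genotype as covariate, and their interaction; scripts were tested on simulated data. Tests of age classes and number letters were added after the data were seen. Named beside the members are, per member, the 3 most correlated genes over 11 and over 9 arrays, and list genes called in a comparison or otherwise with the 2 lowest or 2 highest genotype differences, and further list genes chosen after their values were seen (Sstr2, Sstr4, Cckbr, Cpe, Pcsk1, Drd2, Gad1, Npy, Slc32a1, Nrgn, Tbr1, Nptx1). The gene enters a list through its brightest probe set. Genes were named through a table of the platform, which gave 1 gene for 10855 probe sets, several for 396 and none for 1237.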

Additional observations from a re-analysis of the deposited data

Results flagged for a closer look

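Cck in wild-type brain 5, a female of 6 weeks with an LT number, read 2898, while the other 4 female brains read 1442 to 1694. On log2 signals, its gap to the nearest of them was 0.769 of the whole range of the 5 females, above Dixon's 95% critical value of 0.71. In total 40 groups of members' values were examined in this way, and chance alone would single out about 1 in 20. The 5 females were of both genotypes, and wild-type brain 5 was the only LT animal among them. The LT male brains read 2087 and 2279.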

How the results depend on the processing

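No paired analysis was possible because the labels give animal numbers without pairing mice across groups. None of the members was called for genotype or sex under any alternative run. For the interaction, 2 were called with age as a covariate (Penk 94517_r_at -1.60 and Pdyn 99840_at -2.35), 1 with the letters as a block (Penk 94517_r_at -1.30), and 0 to 1 when single brains were left out (Penk 94517_r_at -1.66 without wild-type brain 4). Without the male null arrays the age classes called 1 member and the number letters 2. Genotype differences that changed sign were, with quantile normalization, Penk 94516_f_at 0.10 and Pdyn 161987_at -0.074; with median centring, Pdyn 161987_at -0.083; without the sex covariate, Penk 94516_f_at 0.0019 and Sst 0.018; without the male null arrays, Penk 94516_f_at 0.093, Penk 94517_r_at -0.39, Pdyn 99840_at -0.31 and Sst 0.14; and with the Gapdh ratio as a covariate, Penk 94516_f_at 0.053, Penk 94517_r_at -0.25, Pdyn 99840_at -0.40, Tac1 0.036 and Sst 0.16. Leaving out single brains gave -0.090 to 0.26 for Pdyn 161987_at and -0.010 to 0.62 for Penk 94517_r_at. Sex differences changed sign for Pdyn 99840_at with age as a covariate (-0.20), for Penk 94517_r_at (0.29) and Pdyn 161987_at (-0.24) without the male null arrays, and for Pdyn 161987_at with the Gapdh ratio (-0.12) and over single brains left out (-0.072 to 0.28). Interactions changed sign for Penk 94516_f_at with quantile normalization (-0.015), for Cck with median centring (0.17), in B4 animals only (0.16) and over single brains left out (-0.44 to 0.34), and for Tac1 with the Gapdh ratio (-0.0040). The cause of these changes was not tested. The interaction could not be fitted without the male null arrays. Median centring moved the median genotype difference of all probe sets from 0.03 to -0.15, the sex difference from -0.01 to 0.17 and the interaction from -0.02 to 0.20. Of the probe sets with an unadjusted p under 0.05, 58.1% were higher in null brains, against 46.5% after quantile normalization and 24% after median centring; for sex the shares higher in females were 39.3%, 57.5% and 85.4%, and for the interaction 47.4%, 55.3% and 67.8% were above 0. A floor at the 20th percentile moved Pdyn 99840_at from 0.63 to 0.54, and the third Penk set lay at or below the floor on 8 of 11 arrays.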
